A study of Mus musculus with 7 samples.

Results

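Nnmt, Cd302, Jazf1, Siglecg, Nrp2 and Gpr183 are 6 mouse genes, of 22225 protein-coding genes in the annotation, that were picked because very high PU.1 or MITF peaks lie beside them. A locus here is the gene and the 75 kb beyond either end on the mm9 build, and a peak belongs to it when its centre lies there. The 6 loci held 117 of 76243 PU.1 peaks in MPs, 118 of 71941 after 36 h of RANKL and 125 of 77072 in OCs. They held 20 of 5413, 16 of 3540 and 16 of 4443 MITF peaks at the same times, and 1 of 349 peaks of the non-specific IgG.

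PU.1 and MITF binding was measured by ChIP-Seq, in which DNA bound by a protein is precipitated with an antibody and sequenced. Flushed bone marrow of 4 to 6 week old C57BLACK6 mice was grown for 3 days with 50 ng/ml CSF1, the growth factor of the macrophage lineage. MPs (myeloid precursors) received CSF1 only, and the other cultures received 100 ng/ml RANKL, the cytokine that drives osteoclast formation, for 36 h or for 72 h (OCs, osteoclasts). In the study's methods the medium with RANKL also held 50 ng/ml CSF1. Each precipitation used 5 micrograms of antibody, to PU.1 or to MITF, and non-specific IgG was used on MPs alone. All groups share the strain and the first culture in CSF1, and the study's methods moved the cells to adherent plates for the RANKL step. Each of the 7 libraries stands for 1 condition with no replicate, so no difference between conditions was tested, and the intervals given cover counting error only. These are bulk cultures, so a change in binding per cell and a change in the share of cells that bind cannot be told apart. Peak lists hold no RNA, so the cell type and the expression of the 6 genes were not checked here.

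PU.1 is an ETS transcription factor of myeloid and B cells that reads the core GGAA, with a preferred longer form GAGGAAGT. It binds mostly far from promoters, in introns and between genes, and is known to open chromatin for other factors. MITF, which pairs a helix-loop-helix domain with a leucine zipper, reads E-boxes such as CACGTG and CATGTG, and is needed for osteoclast function. Both factors are known to act together on osteoclast genes. Several ETS or E-box sites, or a site beside those of AP-1, C/EBP, RUNX or IRF factors, are common in enhancers of myeloid cells.

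The 6 genes have unlike roles. Nnmt encodes nicotinamide N-methyltransferase, which uses S-adenosylmethionine to methylate nicotinamide. Cd302 encodes a C-type lectin receptor of macrophages and dendritic cells. Jazf1 encodes a zinc finger protein of the NuA4 histone acetyltransferase complex. Siglecg encodes an inhibitory sialic acid receptor, best known from B cells. Nrp2 encodes neuropilin-2, a co-receptor for semaphorins and VEGF. Gpr183 encodes EBI2, the oxysterol receptor that guides the migration of leukocytes and osteoclast precursors.

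The peak score of a list is the number of sequenced tags in a peak, scaled to a common library size. The lowest score in a PU.1 list was between 10.2 and 10.3 (6 or 7 tags), in a MITF list between 9.1 and 9.7 (8 to 10 tags) and in the IgG list 22.4 (7 tags). Signal under these values is not listed, so a missing peak means only that none was listed. PU.1 peaks were mostly 150 bp wide in MPs and OCs and 190 bp wide at 36 h. MITF peaks were 150 bp wide in MPs and OCs and 150 to 1387 bp at 36 h, so 36 h scores, and those of MITF above all, were collected over other widths.

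The genes were chosen by the scores of their highest peaks in these lists, so those scores are given as a description. The highest PU.1 peak of all 3 lists lay at Nnmt. Cd302, Jazf1 and Siglecg held peaks ranked between 2 and 7 in MPs and OCs, and Siglecg ranked 40 at 36 h. The highest peaks outside the 6 loci were of like height. In MPs a site on chromosome 2 with Rnd3 as its nearest coding gene ranked 2 with a score of 406.0. At 36 h a site upstream of Alox15 ranked 2 with 362.1, and in OCs an intronic Psen2 site had 333.3, the same score as the Siglecg site. Nrp2 and Gpr183 did not hold peaks of this height. The best rank of any Nrp2 peak was 128, for a score of 260.2 at 36 h, and the best rank of any Gpr183 peak was 187, for 248.3 at 36 h. They are described here as loci with several high peaks in place of 1.

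The sequences of the highest PU.1 site of each locus, and of the next site at Nrp2 and Gpr183, are shown because PU.1 was highest there within each locus. Each is the PU.1 OC peak, 151 bases of the mm9 plus strand read 5′ to 3′, and capitals mark each GGAA (TTCC where it lies on the other strand). The Nnmt site is chr9:48366921-48367071, the Cd302 site chr2:60126817-60126967, the Jazf1 site chr6:52792693-52792843 and the Siglecg site chr7:50647860-50648010. The Nrp2 sites are chr1:62766947-62767097 and chr1:62817194-62817344, and the Gpr183 sites chr14:122386607-122386757 and chr14:122394221-122394371. The number in each name is the distance in kb from the start of the gene, with upstream as negative.
Nnmt +46.3: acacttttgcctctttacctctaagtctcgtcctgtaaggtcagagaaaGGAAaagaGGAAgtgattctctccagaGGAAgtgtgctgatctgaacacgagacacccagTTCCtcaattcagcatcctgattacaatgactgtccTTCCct
Cd302 -4.4: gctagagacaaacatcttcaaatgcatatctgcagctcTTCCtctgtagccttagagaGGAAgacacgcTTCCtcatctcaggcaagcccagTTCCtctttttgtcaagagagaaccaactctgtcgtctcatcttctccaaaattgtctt
Jazf1 +225.9: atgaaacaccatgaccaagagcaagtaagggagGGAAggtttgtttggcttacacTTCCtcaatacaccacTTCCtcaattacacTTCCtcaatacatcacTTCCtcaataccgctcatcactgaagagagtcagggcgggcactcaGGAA
Siglecg -15.6: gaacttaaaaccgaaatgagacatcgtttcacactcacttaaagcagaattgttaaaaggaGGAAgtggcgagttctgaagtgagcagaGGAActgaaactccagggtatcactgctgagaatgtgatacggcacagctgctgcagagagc
Nrp2 +17.2: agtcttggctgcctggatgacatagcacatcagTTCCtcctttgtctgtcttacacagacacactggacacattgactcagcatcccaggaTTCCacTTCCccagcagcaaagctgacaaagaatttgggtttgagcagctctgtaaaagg
Nrp2 +67.4: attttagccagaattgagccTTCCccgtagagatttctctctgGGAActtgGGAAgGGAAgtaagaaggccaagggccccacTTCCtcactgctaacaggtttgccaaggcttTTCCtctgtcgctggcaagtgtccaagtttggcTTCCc
Gpr183 -22.3: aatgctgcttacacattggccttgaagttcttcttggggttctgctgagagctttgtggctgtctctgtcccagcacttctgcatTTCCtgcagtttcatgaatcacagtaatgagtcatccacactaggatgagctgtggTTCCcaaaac
Gpr183 -29.9: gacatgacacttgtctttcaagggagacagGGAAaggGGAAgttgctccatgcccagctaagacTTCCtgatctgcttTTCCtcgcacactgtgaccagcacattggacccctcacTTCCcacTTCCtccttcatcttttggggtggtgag

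GAGGAAGT stood out at the Jazf1 site. Its letters hold 4 copies, all on the minus strand, starting at bases 54, 70, 84 and 100 of the sequence shown, which puts neighbours 16, 14 and 16 bases apart. Of 77002 PU.1 OC peaks whose sequence was read, 21 held 4 or more copies on both strands together, or 0.0273%, and 6 of these 21 were among the 513 highest peaks of the list. The same array reads as tandem repeats of cacTTCCtcaat in the line above, and each copy also overlaps a match to the C/EBP form TTNNGNAA, of which the site had 4. The Nnmt site held 2 copies on the plus strand, starting at bases 56 and 75, and 504 peaks in all held 2 or more, 37 of them among the 513 highest.

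The other sites were less alike. The Siglecg site held 1 GAGGAAGT and 1 match to the composite form that PU.1 reads with IRF factors. The Cd302 site held none of the longer forms named here and 4 GGAA. Of the Nrp2 sites, the one at 17.2 kb held 1 TGANTCA, the AP-1 form, and no GAGGAAGT, and the one at 67.4 kb held 1 GAGGAAGT. The Gpr183 site 22.3 kb upstream held 2 TGANTCA and 1 TGTGGT, the RUNX form, and the one 29.9 kb upstream held 1 GAGGAAGT. None of these 8 sequences held CACGTG or CATGTG.

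Over all peaks of the 6 loci the letters were close to those of the whole list. GAGGAAGT, searched on both strands in 150 bases around the centre, was in 27 of 125 PU.1 OC peaks (21.6%, exact 95% interval 14.7 to 29.8), against 22.3% of all 77002. It was in 49.1% of the 513 highest peaks of the list, so these letters were more frequent among high peaks. GGAA was in 98.4% of the peaks at the loci and 99.2% of all. TGANTCA was in 10.4% against 8.53%, TGTGGT in 16% against 13%, TTNNGNAA in 30.4% against 35.7% and the PU.1-IRF composite in 4.8% against 3.52%. GAGGAAGT and the composite always contain GGAA. Of the 16 MITF OC peaks, 0 held CACGTG and 0 held CATGTG (upper exact limit 20.6% for either), against 1.87% and 10.1% of 4435 MITF OC peaks, while 8 held GAGGAAGT (50%, 24.7 to 75.3), against 30.9% of all and 45.5% of the 527 highest MITF OC peaks. Among PU.1 OC peaks of the loci CACGTG was in 4.8% (1.78 to 10.2) and CATGTG in 11.2%, against 2.5% and 10.9% of all.

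**Figure D1:**
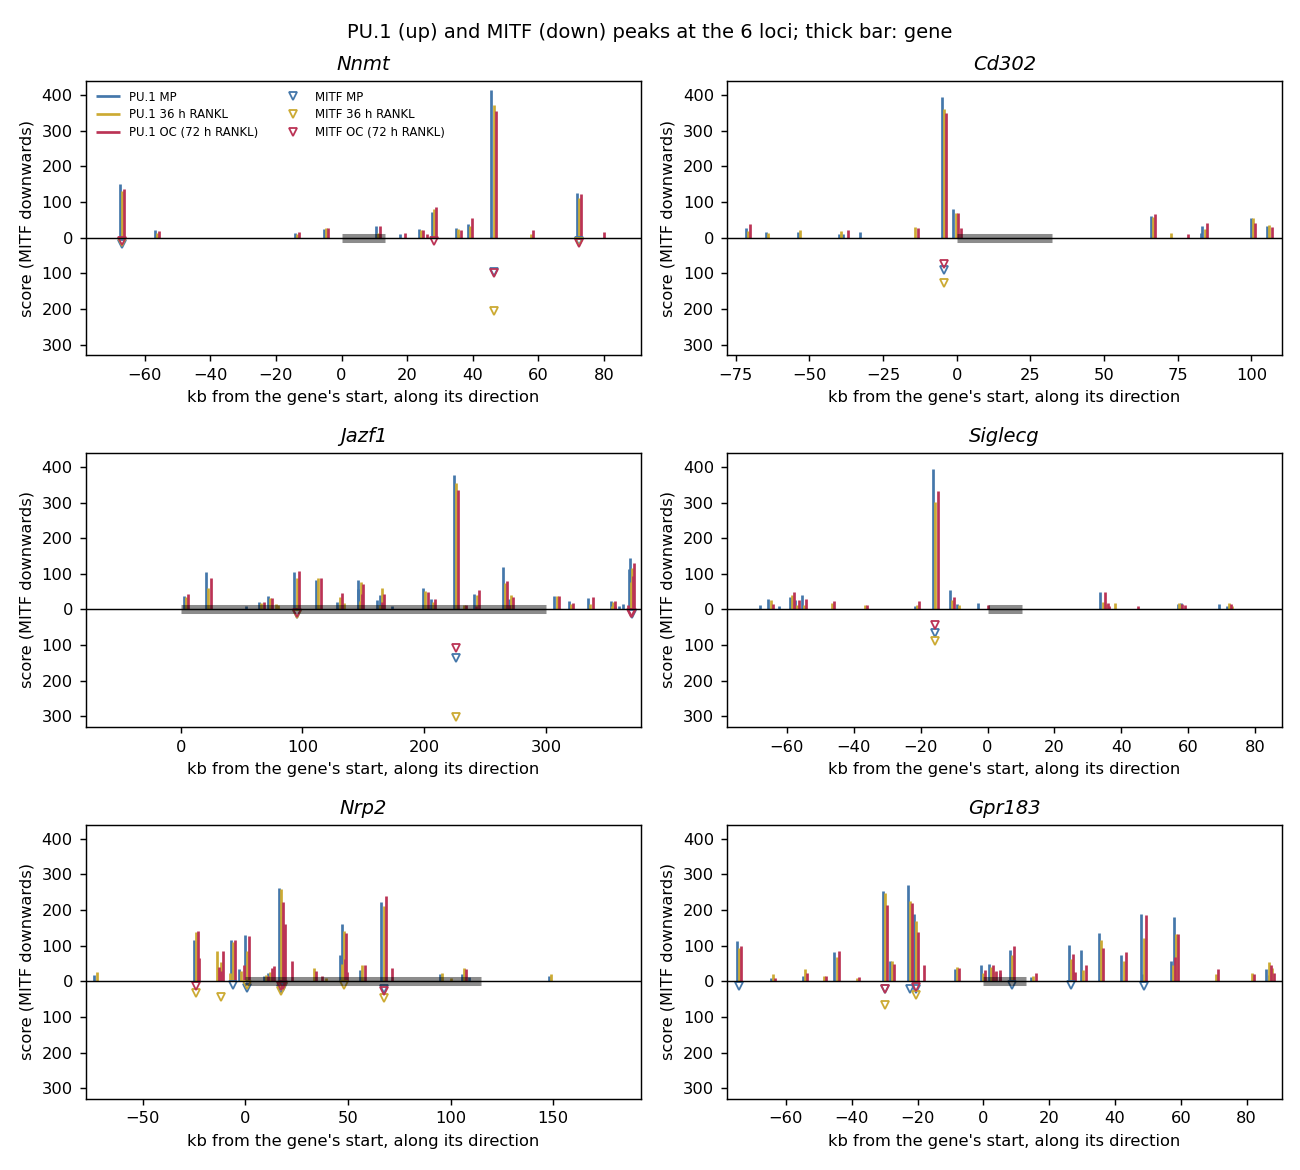
Peak scores along the 6 loci, with kb from the start of the gene in its own direction on the x axis and the gene as a thick bar. PU.1 scores in MPs, at 36 h and in OCs are vertical lines drawn side by side, moved slightly apart for sight, and MITF scores are triangles plotted downwards. Nnmt, Cd302, Jazf1 and Siglecg each show 1 peak far above the rest, while Nrp2 and Gpr183 show several.

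Nnmt lies on chromosome 9 from 48399982 to 48413258 on the minus strand, with Zbtb16 as the only other coding gene in the window. Its highest site is intergenic, 33.0 kb beyond the 3′ end of the gene and 38484 bp from its nearest transcript start. PU.1 scored 414.5 there in MPs (243 tags), 372.5 at 36 h (252 tags) and 356.8 in OCs (243 tags). MITF scored 97.6, 206.4 and 100.5 at the same site. PU.1 was therefore present at high level at all 3 times, and MITF was listed on top of it each time.

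Around that site the Nnmt window held 13, 12 and 15 PU.1 peaks in MPs, at 36 h and in OCs. The next was 66.9 kb upstream, in an intron of Zbtb16, the gene of the zinc finger factor PLZF, with 151.8, 131.6 and 138.0. The one after it was 72.3 kb downstream with 126.2, 112.3 and 121.9. The site 28.2 kb downstream had 71.6, 81.3 and 86.6. MITF was listed at the first and second of these at all 3 times, with scores from 9.1 to 16.6, and at 28.2 kb in OCs alone with 9.1, the lowest score of its list. Only 1 of the 16 sites, at 11.1 kb in an intron, lay inside Nnmt. That site scored 34.1 in MPs (20 tags), 11.8 at 36 h (8 tags) and 33.8 in OCs (23 tags).

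Cd302 lies on chromosome 2 from 60090050 to 60122545 on the minus strand. Its highest site was 4.4 kb upstream of the gene, between Cd302 and Ly75, the gene of the endocytic receptor DEC-205, and fell in the window of both. PU.1 scored 394.0 in MPs (231 tags), 360.7 at 36 h (244 tags) and 349.5 in OCs (238 tags), and MITF 90.4, 127.5 and 73.1. No other site of the window had a MITF peak or reached a PU.1 score of 100. A site 0.4 kb upstream of the start was next with 81.9, 68.0 and 69.0.

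The other sites at Cd302 were mostly in neighbouring genes. An intron of March7, 66.7 kb downstream, held 61.4, 59.1 and 66.1, and an intron of Baz2b, 100.6 kb downstream, held 56.3, 54.7 and 42.6. Of 18 sites in all, 15 lay in other genes, and 7 had a PU.1 peak at all 3 times. Inside Cd302 there was 1 site, 0.7 kb from the start, listed in OCs alone with 26.4.

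Jazf1 lies on chromosome 6 from 52718791 to 53018625 on the minus strand, a gene of 300 kb. Its highest site was in an intron 225.9 kb from the start, at the array of GAGGAAGT described above. PU.1 scored 378.7 in MPs (222 tags), 354.8 at 36 h (240 tags) and 336.3 in OCs (229 tags). MITF scored 136.1 in MPs and 107.3 in OCs, the highest peak of both of those lists, and 300.8 at 36 h, where it ranked 13. The 28 PU.1 peaks of each list at this locus were spread along the gene, and 26 of the 36 sites lay inside it.

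The next Jazf1 site was intergenic, 370.5 kb from the start and beyond the neighbour Tax1bp1, with PU.1 at 145.0, 115.3 and 130.7. Intronic sites at 266.3 kb (119.4, 73.9 and 80.8) and 95.2 kb (105.8, 87.2 and 108.7) were also high, as was an intergenic site at 369.4 kb (114.3, 78.3 and 95.4). MITF was weak at these: 11.4, 11.7 and 10.3 at 95.2 kb, 11.4 and 10.3 in MPs and OCs at 370.5 kb, and 9.1 in OCs alone at 369.4 kb. All 6 sites that reached a PU.1 score of 100 were listed at all 3 times.

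Siglecg lies on chromosome 7 from 50663574 to 50673728 on the plus strand, in a stretch with 8 other coding genes in its window. The highest site was 15.6 kb upstream, between Siglecg and the gene annotated as Siglec5. PU.1 scored 395.7 in MPs (232 tags), 301.5 at 36 h (204 tags) and 333.3 in OCs (227 tags), and MITF 66.5, 89.5 and 42.2. No other MITF peak was listed in this window. The remaining PU.1 peaks were low, and the next, 10.6 kb upstream, had 54.6, 26.6 and 33.8. A site 58.4 kb upstream had 35.8, 39.9 and 48.5, and an intronic Cldnd2 site 34.4 kb from the start had 47.8, 22.2 and 48.5. None of the 25 sites of the window lay inside Siglecg.

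Nrp2 lies on chromosome 1 from 62749859 to 62865269 on the plus strand, and 21 of its 31 PU.1 sites were inside it. The intronic site at 17.2 kb scored 262.7 in MPs (154 tags), 260.2 at 36 h (176 tags) and 223.2 in OCs (152 tags). A further intronic site at 67.4 kb scored 221.8 (130 tags), 211.4 (143 tags) and 240.8 (164 tags) and was the higher of the pair in OCs. The intronic sites at 18.2 kb (182.5, 146.3 and 161.5) and 47.9 kb (162.1, 141.9 and 136.6) followed. A site in a UTR exon 0.6 kb from the start had 129.6, 85.7 and 126.3, so the promoter end of the gene was also occupied.

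MITF was listed at 8 Nrp2 sites, and its scores were low beside those at the first 4 genes. It had 20.8, 47.7 and 26.3 at 67.4 kb, 21.8, 28.2 and 13.7 at 17.2 kb, and 16.6, 12.7 and 10.3 at 18.2 kb. At 24.2 kb upstream, where PU.1 had 116.0, 137.5 and 142.4, MITF was listed at 36 h with 33.1 and in OCs with 13.7. The site at 0.6 kb had 17.7 in MPs and 10.7 at 36 h. MITF had 11.4 in MPs alone at 6.2 kb upstream, where PU.1 had 116.0, 110.9 and 116.0, and 10.7 at 36 h alone at 47.9 kb.

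Gpr183 lies on chromosome 14 from 122351553 to 122364415 on the minus strand, inside an intron of Ubac2, which encodes a membrane protein of the endoplasmic reticulum. Of 33 PU.1 sites, 23 were in Ubac2 introns outside Gpr183. The highest was 22.3 kb upstream of Gpr183, with PU.1 at 271.2 in MPs (159 tags), 226.2 at 36 h (153 tags) and 220.3 in OCs (150 tags). At 29.9 kb upstream PU.1 scored 254.2 (149 tags), 248.3 (168 tags) and 212.9 (145 tags). The site 48.7 kb downstream of the start had 189.3, 122.7 and 185.0, and the one 20.5 kb upstream 187.6, 168.5 and 138.0. That at 48.7 kb lies just upstream of the start of Gpr18, a neighbour also inside the Ubac2 stretch. The highest site, 22.3 kb upstream of Gpr183, fell in the window of Gpr18 as well. Within Gpr183 itself the highest was at 8.6 kb, with 87.0, 73.9 and 99.9.

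MITF at Gpr183 was listed at 7 sites in MPs and at 2 of them later. It scored 21.8, 65.2 and 22.8 at 29.9 kb upstream, and 22.9, 38.0 and 16.0 at 20.5 kb upstream. At 22.3 kb upstream, the highest PU.1 site, it had 22.9 in MPs (22 tags) and was not listed at 36 h or in OCs. The other 4 MITF peaks of MPs had scores from 9.3 to 13.5, 8.6, 26.6 and 48.7 kb downstream of the start and 74.2 kb upstream, which were near the lowest score of the list. Within counting error such low peaks can be missed, so their absence later was not read as loss. There were 4.3 MITF peaks per 100 kb at Gpr183 in MPs, and 1 coding gene of the 22225 had more.

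The height of the first peak over the rest is part of what chose the genes, so the next values are a description. In OCs the highest PU.1 score was 6.87 times the second at Siglecg, 5.07 times at Cd302, 2.59 times at Nnmt and 2.57 times at Jazf1, against a median of 1.43 over coding genes. At Nrp2 it was 1.08 times and at Gpr183 1.03 times. MPs gave the same order, from 7.25 at Siglecg to 1.07 at Gpr183, with a median of 1.48. The share of a locus' summed score that lay in its highest peak gave another picture for Jazf1, with 21.2% in OCs against 27.5% at the median gene, over the 28 peaks of its window. That share was 48.3% at Cd302, 48% at Siglecg, 37.3% at Nnmt, 12.9% at Nrp2 and 10.8% at Gpr183.

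**Figure D2:**
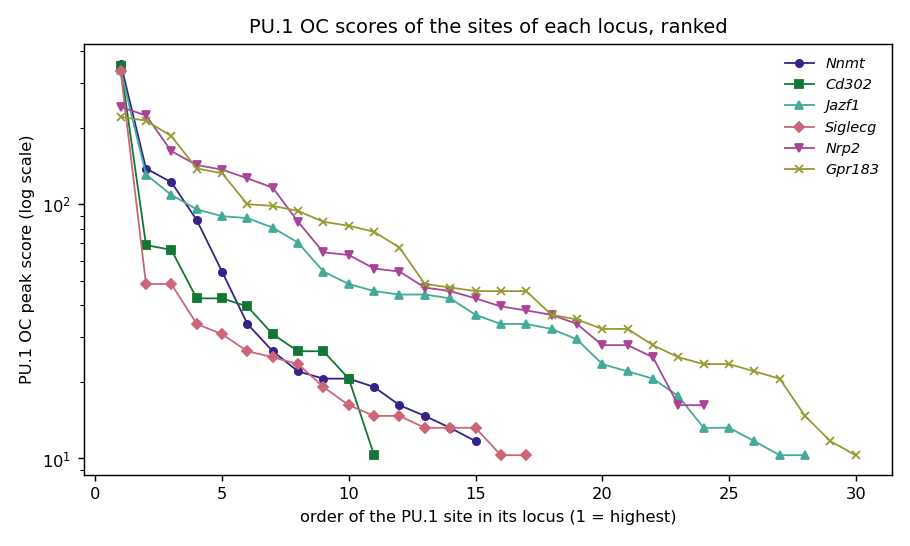
PU.1 OC peak scores of every site of each locus, on a log scale, against their order in the locus. Siglecg and Cd302 drop from 333.3 and 349.5 at the first site to 48.5 and 69.0 at the second, whereas Nrp2 and Gpr183 decline slowly from a first and second score that are nearly equal.

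Among the 6 loci Gpr183 differed most by the number of its peaks. Its window of 163 kb held 26, 28 and 30 PU.1 peaks, and the 18.4 peaks per 100 kb in OCs were exceeded by 51 of the 22225 coding genes, with a median gene at 4.97. Siglecg had 10.6 peaks per 100 kb, Nnmt 9.19, Nrp2 9.04, Jazf1 6.22 and Cd302 6.03. Dense windows were not particular to Gpr183. Of the genes related to it, S1pr1 had 15.5 per 100 kb in OCs, Hsd3b7 14.3 and Ch25h 13.9. Gpr18, whose window overlaps, had 14.9, while Cyp7b1 had 0.311. Gpr183 had 8 sites that reached a score of 100, Nrp2 7, Jazf1 6, Nnmt 3 and Cd302 and Siglecg 1 each. Windows of neighbouring genes overlap, so several of the genes above share peaks with each other.

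Over time the high sites stayed. The 3 PU.1 lists gave 159 separate sites in the 6 loci, of which 87 (54.7%) had a peak in all 3, against 50.5% of 102372 sites in all. All 26 sites that reached a score of 100 at any time were listed at all 3 times, and so were 98.7% of 8609 such sites over the whole lists. Sites listed at 1 time alone numbered 17 in MPs, 10 at 36 h and 18 in OCs of the 159, against 11.1%, 9.03% and 10.3% of all 102372 sites, and their highest score was 55.8. Sites listed at all 3 times were 23 of 33 at Gpr183, 11 of 16 at Nnmt, 23 of 36 at Jazf1, 14 of 31 at Nrp2, 9 of 25 at Siglecg and 7 of 18 at Cd302.

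Of the 125 OC peaks 74.4% (exact 95% interval 65.8 to 81.8) overlapped a MP peak, against 78% of all OC peaks. Of the 117 MP peaks 79.5% (71 to 86.4) overlapped an OC peak, against 78.8% of all, and 80.3% (72 to 87.1) a 36 h peak, against 73.9%. Of the OC peaks 80.8% (72.8 to 87.3) overlapped a 36 h peak, against 75.3%. For 36 h peaks 79.7% overlapped a MP peak and 85.6% an OC peak, against 78.3% and 80.6% of all. The OC peaks with no MP peak had a median score of 20.6, below the 36.7 of all OC peaks of the loci. Siglecg and Nrp2 had the lower shares, with 64.7% (38.3 to 85.8) and 62.5% (40.6 to 81.2) of their OC peaks found in MPs, and both intervals include the share of the whole list.

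Scores of sites shared by 2 lists were set against each other as a ratio, later over earlier, divided by the median ratio over all shared sites, and a site was called past 2-fold at 2 or more or at 0.5 or less. From MPs to OCs 6 of 93 sites of the loci were past 2-fold, of which 5 were higher and 1 lower in OCs, against 5.33% of 60099 sites in all (3.00% higher and 2.34% lower). From MPs to 36 h it was 8 of 94, 4 higher and 4 lower, against 7.43% of 56335 (4.02% higher and 3.41% lower). From 36 h to OCs it was 5 of 101, against 4.61% of 58008. All 3 counts were near what the whole lists gave.

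From MPs to OCs the relative ratio was 0.876 (0.730 to 1.05) at Nnmt, 0.902 (0.750 to 1.09) at Cd302, 0.903 (0.748 to 1.09) at Jazf1 and 0.857 (0.710 to 1.03) at Siglecg. It was 0.864 (0.686 to 1.09) at the Nrp2 site at 17.2 kb, 1.10 (0.872 to 1.40) at that at 67.4 kb and 0.826 (0.656 to 1.04) at the highest Gpr183 site. All 7 of these intervals hold 1. The interval lay below 1 at other sites, none past 2-fold. The ratio was 0.748 (0.562 to 0.994) at the Gpr183 site 20.5 kb upstream. Gpr183 sites 58.6 and 35.7 kb from the start had 0.744 (0.555 to 0.994) and 0.7 (0.496 to 0.985). The Jazf1 site at 266.3 kb had 0.688 (0.474 to 0.994). The Gpr183 site at 30.4 kb, given below, was also among them. Lower sites at Nrp2 and Jazf1, given below, had intervals above 1, with ratios of 2.31, 2.27 and 2.26. The 500 highest shared sites of the MP list had a median relative ratio of 0.857, with 5% of them under 0.699 and 5% over 1, and 0 past 2-fold. Ratios just under 1 were therefore common among sites ranked high in MPs. PU.1 peaks held up to 0.81 tags per position over both strands in MPs, 0.663 at 36 h and 0.81 in OCs. Whether scores of such dense peaks rise in step with binding was not tested. From 36 h to OCs the interval left out 1 at the Nrp2 site at 17.2 kb, with a ratio of 0.795 (0.636 to 0.993), and at the Gpr183 site 29.9 kb upstream, with 0.795 (0.632 to 0.998). The Gpr183 site 48.7 kb downstream of the start went the other way, with 1.4 (1.05 to 1.87). From MPs to 36 h that site had 0.707 (0.525 to 0.947). At that step the Jazf1 site at 266.3 kb had 0.675 (0.46 to 0.984). A Jazf1 site that went from 105.8 to 60.6 had 0.624 (0.41 to 0.942). Siglecg sites that went from 54.6 to 26.6 and from 47.8 to 22.2 had 0.531 (0.281 to 0.976) and 0.506 (0.251 to 0.98). The highest MP sites of the 6 loci had from 0.831 at Siglecg to 1.08 at Nrp2, and each interval held 1. The 500 highest shared sites of the 36 h list had a median of 0.895 from 36 h to OCs. Each set of 500 was ranked by the earlier score, and the part of that choice in the ratio was not tested.

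**Figure D3:**
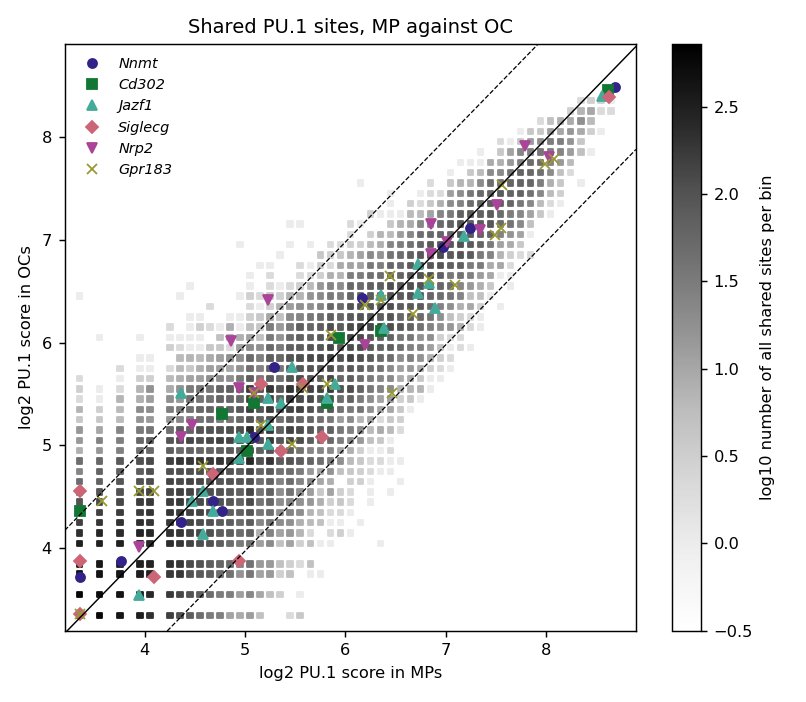
Log2 PU.1 scores in MPs (x axis) and in OCs (y axis) of sites shared by both lists. Grey squares show how many of all 60099 shared sites fall in a bin, symbols the sites of the 6 loci, the solid line the median ratio and the dashed lines 2-fold on either side. The highest sites of Nnmt, Cd302, Jazf1 and Siglecg lie just below the solid line with the other high sites, and 6 of the 93 member sites lie beyond a dashed line.

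The shifts past 2-fold were at lower peaks, and those with a score of at least 30 were looked at by gene. Upstream of Nrp2 were the clearest ones between MPs and OCs. At 11.9 kb upstream PU.1 scored 37.5 in MPs (22 tags), 54.7 at 36 h and 85.2 in OCs (58 tags), a relative ratio of 2.31 (1.39 to 3.96). At 23.6 kb upstream it scored 29.0 in MPs (17 tags) and 64.6 in OCs (44 tags), a ratio of 2.27 (1.27 to 4.23), with no peak at 36 h.

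At 14.0 kb upstream of Nrp2 no peak was listed in MPs, while PU.1 had 85.7 at 36 h (58 tags) and 39.6 in OCs (27 tags), a ratio of 0.428 (0.261 to 0.688) from 36 h to OCs. MITF had a peak at 11.9 kb upstream at 36 h alone, with 44.8 (46 tags), where PU.1 scored 54.7. The MITF score was thus 0.819 of the PU.1 score, above that at 98.5% of the MITF 36 h peaks with a PU.1 peak. The median at 36 h was 0.182, and the highest Jazf1 and Nnmt sites had 0.848 and 0.554. MITF and PU.1 peaks at 36 h differ in width. The single IgG peak of the 6 loci, with 7 tags, was 11.3 kb upstream of Nrp2 and overlapped none of these Nrp2 peaks, and its part in the values beside it was not tested. Of the 31 PU.1 sites of Nrp2, 7 were listed in OCs alone, against 10.3% of all sites, the highest at 21.4 kb (55.8) and 17.7 kb (54.3), in introns.

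At Gpr183 a site 30.4 kb from the start, in a Ubac2 intron, scored 88.7 in MPs (52 tags), 31.0 at 36 h (21 tags) and 45.5 in OCs. The relative ratio from MPs to 36 h was 0.381 (0.218 to 0.644), and from MPs to OCs it was 0.522 (0.323 to 0.830), just short of 2-fold. A pair of low sites went the other way from MPs to 36 h, at 87.6 kb from 17.1 to 38.4 with a ratio of 2.45 (1.15 to 5.71), and at 54.2 kb upstream from 15.4 to 35.5 with a ratio of 2.51 (1.13 to 6.16). Both scored 23.5 in OCs.

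Siglecg had 3 such sites, Jazf1 2, Nnmt 1 and Cd302 0. The Nnmt site at 11.1 kb had a ratio of 0.377 (0.144 to 0.896) from MPs to 36 h and 2.65 (1.14 to 6.84) from 36 h to OCs, on 8 tags at 36 h. In Jazf1 introns the site at 147.2 kb went from 56.3 to 25.1 between MPs and 36 h, a ratio of 0.486 (0.254 to 0.899), and that at 130.5 kb from 20.5 in MPs to 45.5 in OCs, a ratio of 2.26 (1.13 to 4.84). At Siglecg the site 54.9 kb upstream went from 40.9 to 13.3 between MPs and 36 h, a ratio of 0.355 (0.145 to 0.789), and to 30.8 in OCs, where the interval of the ratio from 36 h (0.943 to 5.33) holds 1. The Siglecg site at 34.4 kb had a ratio of 2.02 (1.07 to 4.01) from 36 h to OCs. The Siglecg site 64.9 kb upstream, from 30.7 in MPs to 14.7 in OCs, had an interval of 0.201 to 1.11. With 36 h peaks listed over wider windows, low values at 36 h between like values in MPs and OCs have no replicate to check them.

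MITF sat on PU.1 throughout. All 20 MITF peaks in MPs, all 16 at 36 h and all 16 in OCs overlapped a PU.1 peak of the same time, against 97.9%, 93.8% and 93.3% of all MITF peaks. With 16 of 16 the exact 95% interval reaches down to 79.4%. Seen from PU.1, 17.1% of its MP peaks at the loci (10.8 to 25.2), 13.6% at 36 h and 12.8% in OCs (7.5 to 20) had a MITF peak, against 6.95%, 4.62% and 5.38% of all. The loci were chosen for high PU.1 or MITF peaks, so these shares rest in part on that choice and are given as a description. Among those with a score of at least 100 it was 73.1% of 26 in MPs (52.2 to 88.4) and 70% of 20 in OCs (45.7 to 88.1), against 55.6% and 45.6% of all peaks of that height, and 93.6% and 89.1% of the 516 and 513 highest.

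MITF was listed mainly at the higher PU.1 sites of the loci. Its 25 sites all had a PU.1 score of at least 85.2 at some time, and 12 were listed at all 3 times. At the first 4 genes the highest MITF and the highest PU.1 peak were the same site. The MITF score was 0.359 of the PU.1 score at the Jazf1 site in MPs and 0.319 in OCs, 0.235 and 0.282 at Nnmt, 0.229 and 0.209 at Cd302 and 0.168 and 0.127 at Siglecg, against medians of 0.0973 in MPs and 0.103 in OCs over all MITF peaks with a PU.1 peak. At the Nrp2 site at 17.2 kb it was 0.083 and 0.0614, and at the highest Gpr183 site in MPs 0.0844, under the median. These heights took part in the choice of the genes and are given as values.

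**Figure D4:**
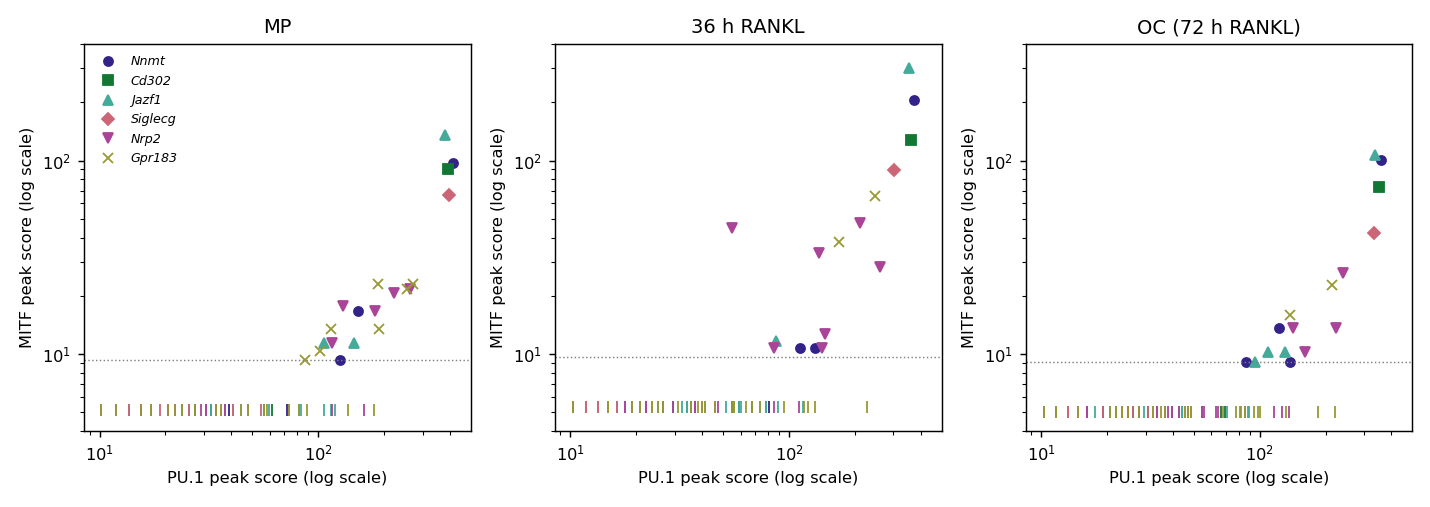
MITF peak score (y axis) against PU.1 peak score (x axis), both on log scales, at every PU.1 site of the loci, with 1 panel for each time. Ticks near the bottom are PU.1 sites with no MITF peak listed, and the dotted line is the lowest score of the MITF list. MITF is listed mainly at PU.1 scores at the right of each panel, and the Nrp2 site with 44.8 against 54.7 at 36 h lies to the left of the rest.

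From MPs to OCs the MITF ratio relative to the median of 2844 shared MITF sites was 1.10 (0.815 to 1.49) at Nnmt, 0.866 (0.617 to 1.21) at Cd302, 0.845 (0.641 to 1.11) at Jazf1 and 0.680 (0.442 to 1.04) at Siglecg. At Nrp2 it was 1.35 (0.711 to 2.60) at 67.4 kb and 0.673 (0.302 to 1.43) at 17.2 kb, and at Gpr183 1.12 (0.577 to 2.17) at 29.9 kb upstream. Every one of these intervals holds 1, and they are wide, so they do not show that the scores were alike. The highest Gpr183 site had MITF at 22.9 in MPs and none listed in OCs, so it gave no ratio. The 36 h scores were higher at all 4 of the first genes, from 89.5 at Siglecg to 300.8 at Jazf1, while their ranks in the list were 13 to 197 there and 1 to 18 in MPs. The 36 h list runs to 1012.3, that of MPs to 136.1, and its peaks are wider. The top of its range comes from 1 stretch of chromosome 17, with scores of 1012.3 and 958.8, and the next peak had 522.7. The peak of 1012.3 overlapped no PU.1 peak at 36 h. No ratio between times was formed with the 36 h list.

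**Figure D5:**
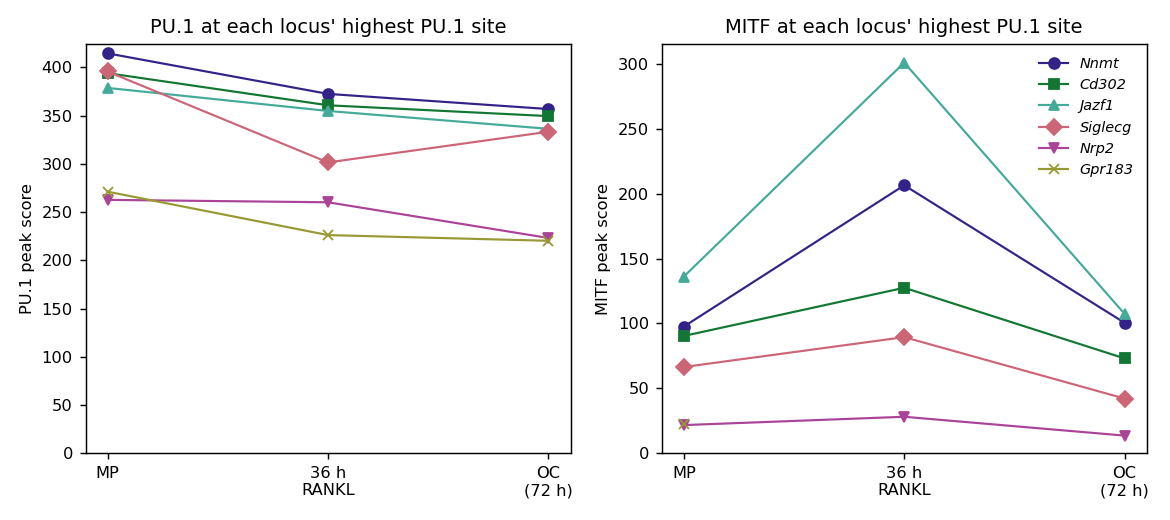
Scores of PU.1 (left) and MITF (right) in MPs, at 36 h and in OCs at the site of each locus with the highest PU.1 score. PU.1 lies between 220.3 and 414.5 at all times, MITF is highest at 36 h in each of the 5 genes with a value there, and Gpr183 has a MITF value in MPs alone. Each point is 1 library, and lines only join the points of a gene.

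Other sites shared these patterns over the 6 libraries. By the distance of log2 scores among 102884 sites, the Nnmt site was most like an intronic Tbc1d14 site (383.8, 332.6 and 321.6 for PU.1) and then the Jazf1 site. The Jazf1 site in turn was most like the Nnmt site and then an intergenic site with Sfi1 as nearest gene. The Cd302 site was most like the chromosome 2 site nearest Rnd3 and an Arrdc4 site, and the Siglecg site most like intronic sites in Zyx and Cpne4. The Nrp2 site at 17.2 kb was most like an Aif1 site and an intronic Arhgap10 site, and the Gpr183 site most like a site upstream of Atp6v1c1.

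Genes related to the 6 by family or pathway, 33 in a list and all found, had PU.1 peaks of all heights in their own windows. For Nnmt, the S-adenosylmethionine and nicotinamide enzymes Mat2a and Nampt had highest OC scores of 101.3 and 89.6, and the sister methyltransferase gene Pnmt 210.0. Ahcy and Aox1, also on the list, had 155.7 and 129.2. For Cd302, the lectin genes Mrc1 and Clec7a had 229.1 and 195.3, while Ly75 shared the Cd302 site. Clec4d and Clec4e, also on the list, each had 188.0. For Jazf1, the NuA4 subunit genes Epc1 and Kat5 had 60.2 and 198.2. Epc2, Suz12 and Nr2c2, also on the list, had 221.7, 233.5 and 88.1.

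For Siglecg, the gene Siglec5 (Siglecf) shared the highest site, while Cd22 and Siglece had highest scores of 189.4 and 136.6, and Cd33, whose window overlaps, 165.9. Siglec1 and Mag, also on the list, had 105.7 and 189.4. For Nrp2, the paralog Nrp1 had 25 PU.1 OC peaks up to 123.3 and no MITF peak at any time, while the semaphorin receptor gene Plxna1 had 29 up to 284.9 with 4 MITF peaks, and the VEGF receptor genes Flt1 and Kdr had 199.7 and 205.6. Plxna2, Plxna4 and Flt4, also on the list, had 99.9, 94.0 and 120.4. In OCs MITF had 2 peaks at Plxna4 and none listed at Plxna2 or Flt4. For Gpr183, the gene of the enzyme that starts its ligand, Ch25h, had 21 PU.1 OC peaks up to 230.5 with MITF at all 3 times, and Cyp7b1, which acts next in that synthesis, had 1 of 13.2. Hsd3b7, which inactivates the ligand, had 24 up to 185.0. S1pr1 had 24 up to 182.1, and Gpr18, which shares the highest Gpr183 site, had 23 up to 220.3. The highest OC score of a median coding gene with any peak was 104.3.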

How the data were processed

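ChIP-Seq of PU.1, MITF and IgG gave 7 libraries, 1 per condition, assigned by the labels. Per the labels and the study's methods, the authors mapped reads with Bowtie2 to mm9 (base calls from CASAVA 1.8) and called peaks with HOMER, whose versions and settings are not given in the sources used here. The deposited value is the peak score, tags in a peak scaled to a common library size. Each list's scores were whole multiples of 1 value (1.7058, 1.4781 and 1.4684 for PU.1 in MPs, at 36 h and in OCs, and 1.0387, 0.9734 and 1.1418 for MITF), which gave the tags, to within 0.0511. The lists also name the nearest RefSeq transcript, used in 1 alternative.

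Genes came from GENCODE vM1 and letters from NCBIM37 (mm9). Peaks with an overlap of at least 1 bp were 1 site, and a distance is from the gene's outermost start to the centre of the site. Shares have exact Clopper-Pearson intervals and tag ratios exact conditional binomial intervals, both 95%. Motifs searched on both strands were the ETS core GGAA and its PU.1 form GAGGAAGT, the E-boxes CACGTG and CATGTG, the AP-1 form TGANTCA, the RUNX form TGTGGT, the C/EBP form TTNNGNAA and the PU.1-IRF composite. The members, lists and tests were chosen with earlier results of these data known. By rule the text names each locus' highest peak in every list, the 3 next PU.1 sites, all MITF sites, sites past 2-fold with a score of at least 30, the 10 highest PU.1 and 5 highest MITF peaks as far as used, 2 like sites per locus (1 for Gpr183 is not reported here) and the relatives. The sites listed in OCs alone at Nrp2, and other sites beyond the rule, were chosen after their values were seen. Scripts (Python 3.11.15, numpy 2.4.6, pandas 2.3.3, scipy 1.17.1, pysam 0.24.0) were tested on simulated data.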

Additional observations from a re-analysis of the deposited data

How the results depend on the processing

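No value has a replicate, and a peak under 6 to 10 tags is not listed. No paired analysis was possible because each condition has 1 library. With 25 kb in place of 75 kb around each gene, the PU.1 peaks were 68 in MPs, 69 at 36 h and 77 in OCs, MITF peaks 13 in MPs and 10 in OCs, and sites past 2-fold 3 from MPs to 36 h and 3 from 36 h to OCs. The highest Nnmt site lies outside that window. With scores of at least 2 times the lowest of each list, MITF peaks were 9 in MPs, 10 at 36 h and 6 in OCs, and sites past 2-fold were 3 from MPs to 36 h, 2 from 36 h to OCs and 3 from MPs to OCs. The share of MP peaks found in OCs was then 90.6%, of 36 h peaks found in MPs 86.6% and of 36 h peaks found in OCs 93.9%. Fewer peaks are left under both alternatives. Matching by centres within 100 bp or by 50% of both peaks, leaving out peaks over IgG, unscaled ratios and the authors' nearest transcript moved no count by over 1.5 times and no share beyond its interval.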
